A study of Mus musculus with 23 samples.

Results

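Regulatory T (Treg) cells of the small intestinal lamina propria (LP Treg) were set against the Treg cells of peripheral lymph nodes that were sorted as negative for both CD103 and Klrg1 (LN CD103-Klrg1- Treg). The arrays were taken by their titles: 2 arrays of LP Treg and 2 of LN CD103-Klrg1- Treg, so 4 of the 23 arrays of the series. A further 2 arrays, of Foxp3-GFP-negative CD4 T cells from the same gut layer (LP Tconv), were used to mark genes that also differed in gut CD4 T cells without Foxp3, here called site-marked. The lymph node subsets CD103+Klrg1+ and CD103+Klrg1-, with 2 arrays each, gave further levels. The cells of these 5 groups came from male C57BL/6-Foxp3/GFP mice of 6 to 10 weeks, a reporter line in which GFP marks cells that express Foxp3. Cells were sorted as CD3+ and CD4+, with B220, CD8a and CD11b/c used to leave out B cells, CD8 T cells and myeloid cells. LP Treg and all 3 lymph node subsets were GFP+, and the gut cells were not sorted on CD103 or Klrg1. Each array held the RNA of 4 to 6 pooled mice, so the spread between arrays is a spread between pools. The other groups of the series, T cells that were transferred into other hosts, entered the fit as further estimates of spread. They also counted in the choice of probe sets and of the genes tested.

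Treg cells restrain immune responses and depend on the transcription factor Foxp3. In the gut wall they meet food and microbial antigens, and mice without Treg-derived IL-10 develop inflammation at such surfaces. CD103, encoded by Itgae, pairs with integrin beta 7 and binds E-cadherin on epithelium, and Klrg1 is an inhibitory lectin receptor of differentiated T and NK cells. Bach2 is a transcriptional repressor that holds back effector genes in Treg cells, and Bcl2 protects lymphocytes from apoptosis.

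Expression was measured on Affymetrix M430v2 arrays as RMA intensity, and all levels below are log2 of that intensity. A log2 fold change is LP Treg minus the named other group, printed with its standard error, and n is 2 arrays per group throughout. A gene was called when its adjusted p was under 0.05 by limma, with Benjamini-Hochberg adjustment over the 12516 genes tested. For LP Treg over LN CD103-Klrg1- Treg, 1822 of these genes had an unadjusted p under 0.05 by limma. Levels under 6.27, the median of all values, lie near background, which can hold up the lower value, so a difference from such a level may be understated. Array medians ran from 63.7 to 81.1 intensity units. The LP Treg arrays correlated at 0.985 with each other over probe sets, the LN CD103-Klrg1- arrays at 0.989 and the LP Tconv arrays at 0.963, the lowest of the 5 groups. The log2 difference between the 3' and 5' Gapdh control probe sets, a sign of RNA length, was 2.42 and 2.65 on the LP Treg arrays, 3.17 and 1.63 on the LP Tconv arrays and 3.01 and 2.80 on the LN CD103-Klrg1- arrays. Replicates 3 and 4 of the CD25- group in the DEC transfer experiment were dim, with medians of 68.5 and 63.7.

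LP Treg differed from LN CD103-Klrg1- Treg in 570 of the 12516 genes, or 4.55% of them. Of these, 304 were higher in LP Treg (2.43% of all tested) and 266 were lower (2.13%). Which direction had more calls depended on the setting: cyclic loess normalization gave 347 higher and 359 lower, and the fit of only the 4 arrays compared 489 and 517. Among the called genes, 281 of the higher and 230 of the lower changed at least 2-fold, and 171 of all 570 at least 4-fold. With 2 arrays a group small changes rarely pass the test, so these counts depend on the threshold. On all 570 the arrays of the groups did not overlap, as was true of 53.2% of all genes tested. The count was 1082 when the dim DEC arrays were left out of the fit and 1494 with array weights. It was 194 without LP Treg replicate 1, 330 without LN CD103-Klrg1- replicate 1 and 234 without its replicate 2. The largest rises were Il10, Gzmb, Gzma, Klrg1 and the heat shock gene Hspa1b, and the largest falls Cnn3, Pxylp1, Sema4a, Ms4a1 and Cmah.

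Foxp3 followed the GFP sort of the labels. It was read at 11.34 and 11.09 on the LP Treg arrays, against 10.62 and 10.08 on the LN CD103-Klrg1- arrays, and the 2 groups did not pass the test (0.86 ± 0.36, adjusted p = 0.257). On the Foxp3-GFP-negative LP Tconv arrays it was at 4.73 and 4.57, near background. Ikzf2, which encodes Helios, was not called, with 12.87 and 12.60 in LP Treg against 12.54 and 12.68 in LN CD103-Klrg1- Treg (0.13 ± 0.18, adjusted p = 0.856). Ctla4 was at 14.53 and 13.81 in LP Treg against 12.58 and 12.63, a difference of 1.56 ± 0.74 that was not called (adjusted p = 0.338). Il2ra, which encodes CD25, was at 9.69 and 10.47 in LP Treg against 11.39 and 11.06 in LN CD103-Klrg1- Treg (-1.14 ± 0.39, adjusted p = 0.118). Its second probe set disagreed, with a difference of 0.19. Of the site markers, Ccr9 was higher in the gut and is given below, Itgb7 did not pass the test (0.81 ± 0.54, adjusted p = 0.592), and neither did Ccr7, a lymph node homing receptor (-1.69 ± 0.58, adjusted p = 0.127). None of the 7 pan T cell markers tested was called by limma, and 0 of them had an unadjusted p under 0.05.

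The 6 genes that mark this comparison, Il10, Gzma, Gzmb, Klrg1, Bach2 and Bcl2, had no overlap between the arrays of the 2 groups. The same was true of 53.2% of all genes tested. Il10, the gene of the suppressive cytokine IL-10, read 14.01 and 13.53 on the LP Treg arrays, against 7.51 and 6.20 on the LN CD103-Klrg1- arrays. Both gut arrays thus lay far above both lymph node arrays, a 121-fold difference (6.92 ± 0.50 on the log2 scale, adjusted p = 1.85e-07). Gzmb, which encodes the killing protease granzyme B, read 13.50 and 12.94 in LP Treg, against 6.45 and 6.31 (6.84 ± 0.31, adjusted p = 5.07e-10). Gzma, the gene of granzyme A, read 11.98 and 12.45 in LP Treg, against 5.87 and 6.44 (6.06 ± 0.42, adjusted p = 1.85e-07). Both granzyme genes were near background in the lymph node subset, and both gut arrays lay far above it. Klrg1 read 13.26 and 13.50 in LP Treg, against 7.53 and 7.69 (5.77 ± 0.41, adjusted p = 1.85e-07). Its lymph node value was fixed in part by the sort, which kept Klrg1-negative cells only. The same holds for Itgae, at 13.14 and 12.88 in LP Treg against 8.41 and 7.77 in cells sorted as CD103-negative (4.92 ± 0.61, adjusted p = 7.39e-05).

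Bach2 and Bcl2 went the other way. Bach2 read 7.24 and 8.54 in LP Treg, against 10.74 and 11.38 in LN CD103-Klrg1- Treg (-3.17 ± 0.50, adjusted p = 0.000824). A second Bach2 probe set gave -3.01 and a dim further one gave -0.50. Bcl2 read 9.67 and 10.02 in LP Treg, against 12.79 and 13.21 (-3.15 ± 0.51, adjusted p = 0.000887), and its other 4 probe sets gave -0.83 to -2.60. All 6 marker genes stayed called in each of 15 other settings and in the fit of only the 4 arrays compared. In bulk samples fewer cells of a type and less RNA per cell cannot be told apart, so these levels are averages over the sorted pool.

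The remaining groups ordered the marker genes differently. Il10 averaged 13.77 in LP Treg, 9.78 in LP Tconv, 9.86 in LN CD103+Klrg1+, 8.85 in LN CD103+Klrg1- and 6.85 in LN CD103-Klrg1-, so the gut Treg arrays stood above every other group while LP Tconv and LN CD103+Klrg1+ overlapped. Gzma was high in both gut groups only, with 12.22 in LP Treg and 12.07 in LP Tconv, against 7.22 in LN CD103+Klrg1+ and 6.15 in LN CD103-Klrg1-. Gzmb by contrast was also high in the lymph node subset with both surface markers, at 11.86, with 13.22 in LP Treg and 12.59 in LP Tconv. Klrg1 was low in LP Tconv, at 8.04, and highest in the lymph node cells sorted for it, at 14.16. Bach2 and Bcl2 were lowest in LP Treg and LN CD103+Klrg1+, at 7.89 and 9.01 for Bach2 and 9.84 and 10.27 for Bcl2, and the arrays of these 2 groups overlapped for both genes.

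**Figure D1:**
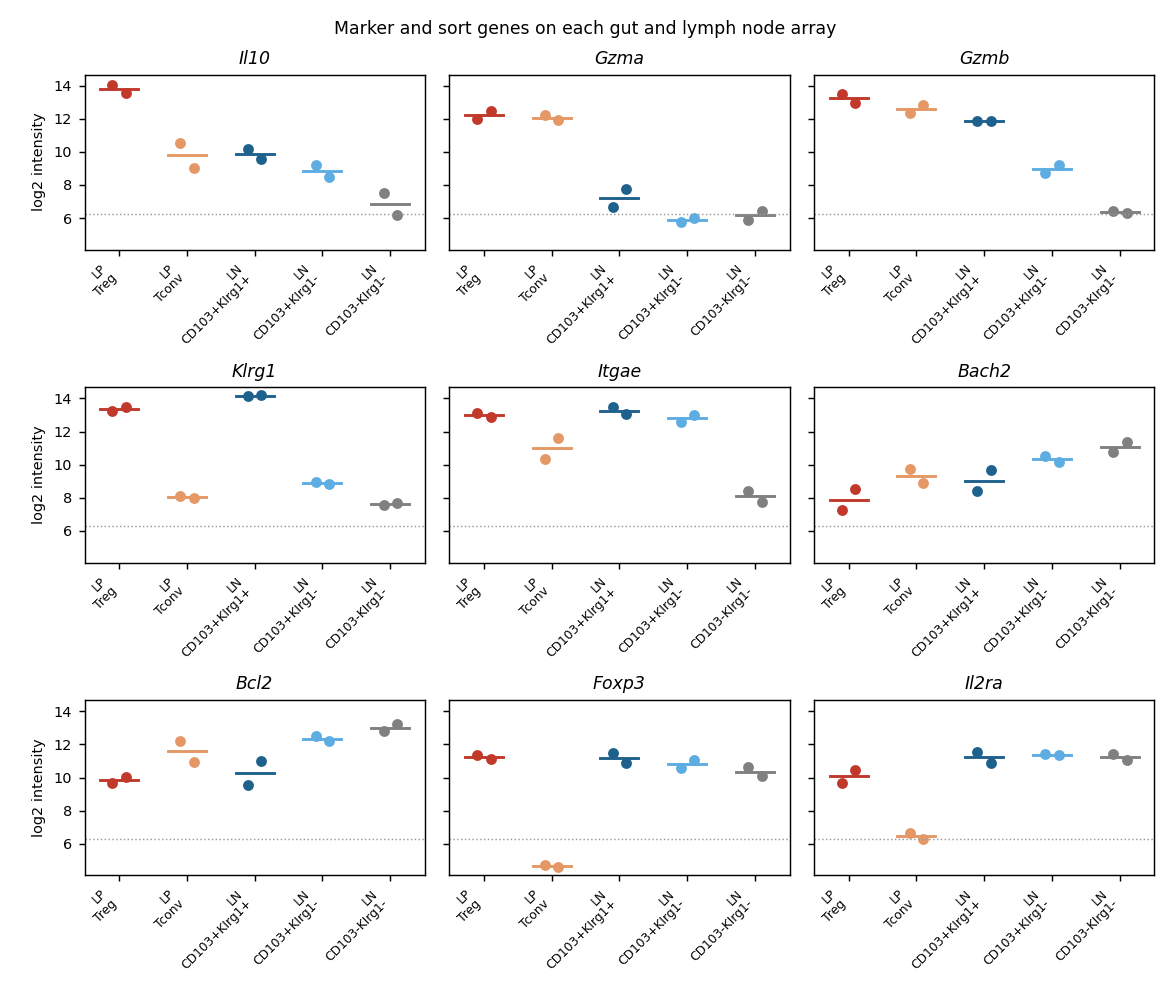
Log2 RMA intensity of the marker and sort genes (vertical axis) on the 2 arrays of each gut and lymph node group (horizontal axis); points are arrays, short lines group means and the dotted line the median of all values, 6.27. Il10 lies at 13.53 and 14.01 in LP Treg, above every other array, while Gzma is high in both gut groups and Klrg1 in LP Treg and the lymph node cells sorted for it.

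Promoter windows of Gzmb, Gzma, Bach2 and Bcl2 are shown because Bach2 encodes a DNA-binding repressor that fell while both granzyme genes rose. Whether these changes are linked was not tested, and no window was available for Il10 and Klrg1. The windows run from 250 bases before to 50 bases after the transcript start, from RefSeq on the build GRCm38.p6, and are printed 5′ to 3′ on the gene's strand. Capitals mark matches to TGANTCA, the core of the site bound by AP-1 and Bach proteins, which reads the same on both strands. Gzmb lies at chr14:56262285-56262584 on the minus strand, Gzma at chr13:113100932-113101231 on the minus strand, Bach2 at chr4:32417185-32417484 on the plus strand and Bcl2 at chr1:106714241-106714540 on the minus strand.
Gzmb: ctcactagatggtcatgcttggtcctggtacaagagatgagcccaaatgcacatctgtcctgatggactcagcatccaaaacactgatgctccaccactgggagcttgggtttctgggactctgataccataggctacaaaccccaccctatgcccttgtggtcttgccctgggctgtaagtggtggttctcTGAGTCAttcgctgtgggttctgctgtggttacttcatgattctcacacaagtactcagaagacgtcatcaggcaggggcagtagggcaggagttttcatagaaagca
Gzma: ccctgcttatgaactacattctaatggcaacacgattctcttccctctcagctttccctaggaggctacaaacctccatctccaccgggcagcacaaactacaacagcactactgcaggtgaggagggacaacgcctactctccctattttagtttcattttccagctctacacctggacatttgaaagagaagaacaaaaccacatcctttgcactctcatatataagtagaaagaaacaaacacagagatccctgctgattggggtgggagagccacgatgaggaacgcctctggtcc
Bach2: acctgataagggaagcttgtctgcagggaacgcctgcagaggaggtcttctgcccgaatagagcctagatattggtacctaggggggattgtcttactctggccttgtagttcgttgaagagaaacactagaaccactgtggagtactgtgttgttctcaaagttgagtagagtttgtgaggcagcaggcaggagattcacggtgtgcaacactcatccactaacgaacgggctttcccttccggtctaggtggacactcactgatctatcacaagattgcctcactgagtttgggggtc
Bcl2: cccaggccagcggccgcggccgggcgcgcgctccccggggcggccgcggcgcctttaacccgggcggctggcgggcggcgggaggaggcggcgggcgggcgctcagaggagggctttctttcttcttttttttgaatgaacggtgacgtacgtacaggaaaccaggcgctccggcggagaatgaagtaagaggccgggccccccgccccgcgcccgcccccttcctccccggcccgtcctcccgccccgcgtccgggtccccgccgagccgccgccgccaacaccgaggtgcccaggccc
The Gzmb window held 1 match, starting at position -58 from the transcript start. These letters are not in the windows of Gzma, Bach2 and Bcl2. Over all 32851 windows 7.8% held a match, and over the windows of the genes tested 5.6%. Among windows of genes called higher in LP Treg the share was 11.4% (36 of 315), and among those of genes called lower 5.3% (15 of 284). Many genes have several windows, and a match is a description of letters only.

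Several suppressor genes were higher in LP Treg than in LN CD103-Klrg1- Treg. Of 15 tested genes of secreted and surface suppressor mediators, 7 were called higher in LP Treg and the other 8 were not called. The share called higher over all genes tested was 2.43%. The median log2 fold change of the list was 1.33, beside 0.05 over all genes tested. Over LN CD103+Klrg1+ Treg the median was 0.35, with 2 called higher and 1 lower. Fgl2, which encodes the secreted suppressor fibrinogen-like protein 2, read 12.47 and 12.30 in LP Treg, against 7.49 and 7.19 in LN CD103-Klrg1- Treg (5.05 ± 0.41, adjusted p = 5.9e-07). Havcr2, the gene of the inhibitory receptor Tim-3, read 7.57 and 7.03, against 4.57 and 4.74, which lies near background (2.65 ± 0.41, adjusted p = 0.000737). Lag3, another inhibitory receptor, read 7.41 and 7.15, against 6.04 and 5.94 (1.29 ± 0.21, adjusted p = 0.000918). For all 3 genes both gut arrays lay above both lymph node arrays, and 53.2% of all genes tested had no overlap in either direction. Ebi3, a subunit of the cytokines IL-27 and IL-35, read 9.16 and 9.08, against 7.50 and 6.75 (2.00 ± 0.42, adjusted p = 0.00758), and lost its call without LP Treg replicate 1 or LN CD103-Klrg1- replicate 2. The list count was 4 higher without either of these arrays.

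Within the cytotoxic granule list, only Gzma, Gzmb and Srgn were called among the 13 genes tested, all higher in LP Treg. The share called higher over all genes tested was 2.43%. Srgn, the gene of serglycin, the proteoglycan that packs granzymes, read 13.61 and 13.81 in LP Treg, against 12.64 and 12.56 (1.11 ± 0.20, adjusted p = 0.0024). Fasl, which encodes the death ligand, read 8.76 and 8.19 in LP Treg, against 7.12 and 6.53, and was not called (1.65 ± 0.50, adjusted p = 0.0779). Its level in LP Tconv was far higher, at 12.25 and 12.00, and the difference between LP Treg and LP Tconv was called (-3.65, adjusted p = 0.00023). Of the 5 killer lectin receptors tested, Klrb1f and Klrg1 were higher in LP Treg, and the sort fixed the lymph node level of Klrg1. Klrb1f, a member of the Nkrp1 receptor family, read 8.53 and 7.71, against 6.79 and 6.62 (1.42 ± 0.35, adjusted p = 0.0223), a call lost without LP Treg replicate 1 or either LN CD103-Klrg1- array. Klrd1, the gene of CD94, read 5.18 and 5.49 in LP Treg, against 7.10 and 8.16, and was not called (adjusted p = 0.0886).

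Several homing and chemokine receptor genes were higher in LP Treg than in LN CD103-Klrg1- Treg. Of 17 tested, 9 were higher in LP Treg, beside 2.43% of all genes tested. The other 8 were not called, and the list median log2 fold change was 1.21. One of the 9 was Itgae, whose lymph node level the sort fixed. Over LN CD103+Klrg1+ Treg the median of the list was 0.19, with 3 called higher and 1 lower. Ccr9, the receptor that brings T cells to the small intestine, averaged 13.10 ± 0.15 in LP Treg, against 9.34 ± 0.35 in LN CD103-Klrg1- Treg (SD, n = 2 each; 3.77 ± 0.60, adjusted p = 0.000882). Ccr2, which binds the monocyte chemokine CCL2, read 12.32 and 11.41, against 7.71 and 7.76 (4.13 ± 0.38, adjusted p = 3.3e-06). It read 11.51 and 11.81 in LN CD103+Klrg1+ Treg, and LP Treg minus that subset was not called (0.205, adjusted p = 0.92). Gpr15, a receptor for homing to the large intestine, read 10.68 and 10.46, against 7.66 and 7.45 (3.02 ± 0.38, adjusted p = 7.51e-05). The LP Treg and LN CD103-Klrg1- arrays were well apart for each of these receptors. Ccr4, which binds CCL17 and CCL22, read 9.02 and 8.15, against 6.50 and 6.39 (2.14 ± 0.23, adjusted p = 1.32e-05). Cxcr6, the receptor for CXCL16, read 9.08 and 8.25, against 5.28 and 6.12 (2.97 ± 0.46, adjusted p = 0.000673).

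These receptors split by cell type within the gut. Ccr9 stood at 12.81 and 12.23 in LP Tconv, and the difference of LP Treg from LP Tconv was not called (0.58, adjusted p = 1.0). Gpr15 was at 6.45 and 6.69 in LP Tconv, below LP Treg by 4.00 (adjusted p = 4.12e-06), and Ccr4 was below LP Treg by 1.75 (adjusted p = 0.000118). Cxcr6 was higher in LP Tconv, at 11.33 and 11.31, so that LP Treg minus LP Tconv was -2.65 (adjusted p = 0.00206). Among 9 genes of lymphoid recirculation 1 was called, Gpr183, an oxysterol receptor that guides cells within lymphoid tissue. It was higher in LP Treg, at 11.33 and 10.83 against 8.86 and 8.32 (2.48 ± 0.49, adjusted p = 0.00491), and lost its call without LP Treg replicate 1 or LN CD103-Klrg1- replicate 2. S1pr1, the receptor for exit from lymphoid tissue, read 8.92 and 8.67 in LP Treg, against 9.64 and 10.08, and was not called (-1.07 ± 0.74, adjusted p = 0.605). With array weights, and likewise without the dim DEC arrays, 3 genes of this list were called lower, S1pr1, S1pr4 and Ccr7.

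Of 17 tested transcription factors of effector Treg and helper cells, 8 were higher in LP Treg than in LN CD103-Klrg1- Treg. The other 9 were not called, and the list median was 1.40. The share called higher over all genes tested was 2.43%. Over LN CD103+Klrg1+ Treg the median was 0.12, with 2 called higher and 0 lower. Id2, an inhibitor of E proteins, read 12.53 and 11.88 in LP Treg, against 8.04 and 8.46 in LN CD103-Klrg1- Treg (3.96 ± 0.38, adjusted p = 5.77e-06). Prdm1, which encodes the effector regulator Blimp-1, read 12.33 and 11.59, against 8.78 and 8.65 (3.25 ± 0.41, adjusted p = 8.61e-05). Nfil3, a basic leucine zipper factor, read 10.13 and 8.71, against 6.25 and 5.38 (3.61 ± 0.45, adjusted p = 7.46e-05). Each of these factors was higher on both gut arrays, and the LP Treg arrays lay farther apart for Nfil3 than for the others. Arrays did not overlap, in either direction, for 53.2% of all genes tested. Maf, a factor that drives Il10 in T cells, read 13.04 and 12.78, against 10.40 and 10.35 (2.54 ± 0.40, adjusted p = 0.00082). Rora, an orphan nuclear receptor of helper cells, read 11.42 and 11.30, against 8.93 and 9.24 (2.27 ± 0.36, adjusted p = 0.00074). Of its 9 probe sets, 4 dim ones differed by only 0.13 to 0.28. Id3, which like Id2 blocks E proteins, moved the other way, at 5.58 and 6.62 in LP Treg against 9.38 and 8.84 (-3.01 ± 0.56, adjusted p = 0.00317), a call lost without LP Treg replicate 1.

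The aryl hydrocarbon receptor (AhR) pathway senses diet- and microbe-derived ligands. It was represented by 3 calls among 11 tested genes of the list on retinoic acid, vitamin D and AhR. All 3 were higher in LP Treg, beside 2.43% of all genes tested. Ahr, the receptor itself, read 12.38 and 12.08 in LP Treg, against 9.87 and 9.73 (2.44 ± 0.41, adjusted p = 0.00141), while a dim second probe set differed by 0.17. Ahrr, the repressor that AhR induces, read 8.94 and 8.61, against 4.88 and 4.69 near background (3.99 ± 0.39, adjusted p = 5.77e-06). Tiparp, an AhR-induced ADP-ribosyltransferase, read 11.17 and 10.30, against 8.68 and 8.40 (2.19 ± 0.41, adjusted p = 0.00327), and lost its call without LP Treg replicate 1 or LN CD103-Klrg1- replicate 2. All 3 were at least as high in LP Tconv, at 12.53 and 12.68 for Ahr, 10.03 and 9.16 for Ahrr, and 11.25 and 11.10 for Tiparp. Cyp1b1, an AhR-induced oxygenase, was not called in LP Treg (0.71 ± 0.23, adjusted p = 0.0887) and was higher in LP Tconv than in LP Treg (-1.33, adjusted p = 0.0017). Cyp1a1 and Arnt, also of this list, were tested in LP Treg over LN CD103-Klrg1- Treg and were not called.

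The windows of Ahrr, at chr13:74292282-74292581 on the minus strand, and Tiparp, at chr3:65528197-65528496 on the plus strand, are shown because both genes are AhR targets. Capitals mark GCGTG, the core of the AhR response element, or its reverse complement, searched on both strands.
Ahrr: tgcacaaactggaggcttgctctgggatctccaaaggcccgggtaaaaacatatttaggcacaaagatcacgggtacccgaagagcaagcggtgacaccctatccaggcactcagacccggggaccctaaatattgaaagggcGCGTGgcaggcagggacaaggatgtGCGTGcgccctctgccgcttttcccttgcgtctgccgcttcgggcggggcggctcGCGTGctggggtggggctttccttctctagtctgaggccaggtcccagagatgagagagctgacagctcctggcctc
Tiparp: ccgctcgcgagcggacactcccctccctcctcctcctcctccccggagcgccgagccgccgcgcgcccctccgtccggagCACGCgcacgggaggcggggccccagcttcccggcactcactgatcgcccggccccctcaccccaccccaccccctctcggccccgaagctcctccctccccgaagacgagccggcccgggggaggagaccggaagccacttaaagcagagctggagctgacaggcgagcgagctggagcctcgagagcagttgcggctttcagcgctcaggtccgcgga
Ahrr held 3 matches, at positions -107, -82 and -27, and Tiparp 1 on the other strand, at position -170. No printed window held both this motif and TGANTCA. The short core is common: 32.4% of all windows and 47.6% of the windows of tested genes held it. The share was 47.0% for genes called higher in LP Treg and 43.0% for those called lower.

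Many naive and central T cell genes fell in LP Treg. Of 18 tested, 10 were called lower, beside 2.13% of all genes tested. The other 8 were not called, and the list median log2 fold change was -1.63. Over LN CD103+Klrg1+ Treg the median was -0.48, with 0 called higher and 1 lower. Besides Bach2, Bcl2 and Id3, Il6ra, a receptor subunit for IL-6, read 7.00 and 7.63 in LP Treg, against 9.57 and 10.31 in LN CD103-Klrg1- Treg (-2.63 ± 0.47, adjusted p = 0.00202). It lost its call without LP Treg replicate 1 or LN CD103-Klrg1- replicate 2, and its second probe set differed by 0.20. Myb, a factor of progenitor-like lymphocytes, read 7.78 and 8.24, against 10.58 and 10.81 (-2.69 ± 0.40, adjusted p = 0.000538). Foxp1, a factor of quiescent T cells, read 9.39 and 10.28, against 11.89 and 11.98 (-2.11 ± 0.34, adjusted p = 0.000998). For Foxp1 the call was lost with the mean of its 8 probe sets. The count of lower genes was 5 without LP Treg replicate 1 and 6 without LN CD103-Klrg1- replicate 2. Bcl2 was the sole call among 15 genes of its family and other survival genes, whose median was 0.20. Pmaip1, which encodes the death-promoting protein Noxa, differed by 1.65 ± 0.64 and Bcl2l11, which encodes Bim, by -1.53 ± 0.60, and neither passed the test (adjusted p = 0.193 and 0.201).

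**Figure D2:**
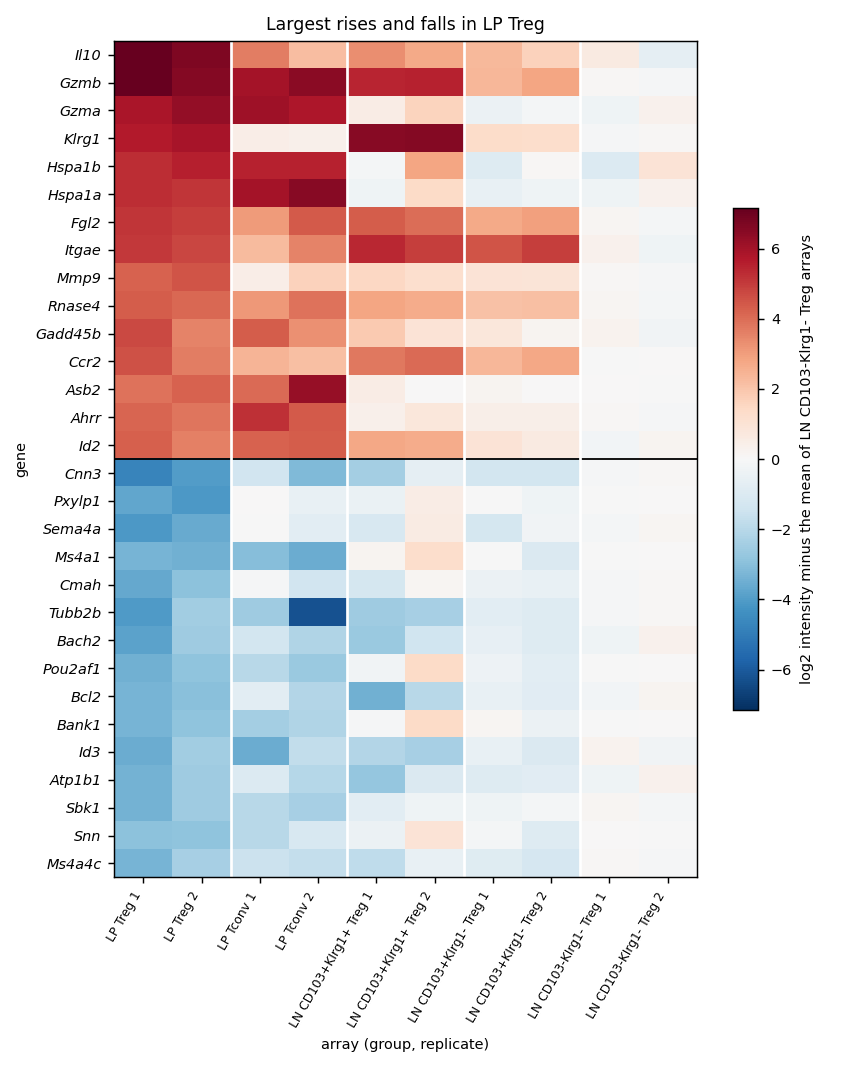
Heat map of the 15 largest rises and 15 largest falls in LP Treg (rows) on the 10 gut and lymph node arrays (columns), as log2 intensity minus the mean of the LN CD103-Klrg1- Treg arrays. Il10 is 6.92 and Cnn3 -4.34 in LP Treg on average; Gzmb, Gzma and the Hspa1 genes are also high in LP Tconv, and Klrg1 and Itgae in LN CD103+Klrg1+ Treg.

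Among the other large rises, Mmp9, a matrix-degrading protease, read 10.38 and 10.69 in LP Treg, against 6.28 and 6.09 in LN CD103-Klrg1- Treg (4.35 ± 0.33, adjusted p = 2.98e-07). Rnase4, a secreted ribonuclease, read 10.92 and 10.68, against 6.73 and 6.47 (4.21 ± 0.34, adjusted p = 5.9e-07). Asb2, a ubiquitin ligase subunit, read 10.03 and 10.38, against 6.17 and 6.11 (4.06 ± 0.42, adjusted p = 1.15e-05). All 3 were near or just above background in the lymph node subset. Gadd45b, a stress-induced signalling gene, read 12.43 and 11.24, against 7.93 and 7.47 (4.14 ± 0.87, adjusted p = 0.00745), a call lost without LP Treg replicate 1 or LN CD103-Klrg1- replicate 2. Ky, a gene known from muscle, read 10.13 and 9.70, against 6.54 and 6.41 (3.44 ± 0.25, adjusted p = 1.85e-07), while its second probe set differed by 0.21. Nckap5 read 7.86 and 6.96, against 4.00 and 4.06 near background (3.39 ± 0.34, adjusted p = 6.57e-06).

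The largest falls had no single role. Cnn3, an actin-binding calponin, read 5.73 and 6.45 in LP Treg, against 10.36 and 10.50 in LN CD103-Klrg1- Treg (-4.34 ± 0.66, adjusted p = 0.000566), and all 6 of its probe sets were lower in LP Treg. Pxylp1, an enzyme of glycosaminoglycan synthesis, read 3.68 and 3.27, against 7.33 and 7.44 (-3.90 ± 0.40, adjusted p = 8.25e-06), but its other probe sets gave -0.88 and 0.02. Sema4a, a semaphorin with roles in T cell contact, read 4.69 and 5.18, against 8.63 and 8.95 (-3.85 ± 0.42, adjusted p = 1.58e-05), and its second probe set gave -0.58. These 3 genes were near or below the median of all values in LP Treg. Cmah and St8sia6, both of sialic acid metabolism, were also lower. Cmah read 8.07 and 8.80, against 11.64 and 11.82 (-3.29 ± 0.51, adjusted p = 0.000657), and St8sia6 8.22 and 9.08, against 11.43 and 11.45 (-2.79 ± 0.46, adjusted p = 0.00104). The other probe sets of Cmah gave -1.41 to -0.06. Atp1b1, a sodium pump subunit, fell by 2.96 on the log2 scale (adjusted p = 0.00074), Sbk1, a kinase, by 2.95 (adjusted p = 2.2e-05), Snn by 2.91 (adjusted p = 0.00155, with a second probe set at -0.01) and Ms4a4c fell by 2.85 (adjusted p = 9.87e-05). Tubb2b, a tubulin, read 6.08 and 7.62, against 10.07 and 10.21 (-3.29 ± 0.85, adjusted p = 0.0325), and lost its call without LP Treg replicate 1 or either LN CD103-Klrg1- array.

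Genes of the Treg signature moved in both directions. Of 24 tested, 6 were called higher in LP Treg and 3 lower, beside 2.43% and 2.13% of all genes tested. The other 15 were not called, and the list median was 0.69. The counts were 4 higher and 0 lower without LP Treg replicate 1. The higher ones included Klrg1 and Itgae, whose lymph node levels the sort fixed, and Fgl2 and Gpr15. The 3 lower ones were Plagl1, Nrp1 and Ikzf4. Nrp1, the gene of neuropilin-1, a marker of thymus-derived Treg cells in mice, read 9.68 and 9.86 in LP Treg, against 11.77 and 11.30 (-1.76 ± 0.40, adjusted p = 0.0129). Plagl1, a zinc finger factor, read 9.59 and 9.20, against 11.56 and 11.51 (-2.14 ± 0.47, adjusted p = 0.00971). Its other probe sets gave -0.41 and -0.11, and it was not called with the mean of probe sets, with only the 10 gut and lymph node arrays or without any 1 array of either group. Ikzf4, which encodes Eos, a partner of Foxp3, read 9.86 and 10.52, against 11.44 and 11.98 (-1.52 ± 0.41, adjusted p = 0.041), with -0.97 and 0.01 for its other probe sets. All 3 falls lost their call when LP Treg replicate 1, LP Treg replicate 2 or LN CD103-Klrg1- replicate 1 was left out. In LP Tconv all 3 were lower still, at means of 7.49 for Nrp1, 5.84 for Plagl1 and 7.36 for Ikzf4.

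Of the TNF receptor and costimulatory genes, 3 of 18 were higher in LP Treg, beside 2.43% of all genes tested. Tnfrsf1b, the gene of TNF receptor 2, which supports Treg growth, read 12.72 and 11.41 in LP Treg, against 9.49 and 9.13 (2.75 ± 0.39, adjusted p = 0.000318), while its second probe set differed by 0.14. Tnfrsf4, the gene of OX40, read 12.38 and 12.01, against 11.34 and 10.53 (1.26 ± 0.29, adjusted p = 0.016), and Slamf1 read 11.70 and 11.11, against 10.19 and 9.53 (1.54 ± 0.33, adjusted p = 0.00768). The calls of Tnfrsf4 and Slamf1 were lost without LP Treg replicate 1 or LN CD103-Klrg1- replicate 2. Tnfrsf9, which encodes 4-1BB, did not pass the test (1.13 ± 0.40, adjusted p = 0.139).

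Among helper cytokine genes 25.0% were called and among cytokine receptors 33.3%, beside 4.55% of all genes tested. Of 8 helper cytokine genes tested, Ifng was called higher in LP Treg and Tnf lower. Ifng, the gene of interferon gamma, read 10.21 and 10.49 in LP Treg, against 8.27 and 7.95 (2.24 ± 0.41, adjusted p = 0.00274), with an adjusted p of 0.0505 without LN CD103-Klrg1- replicate 2. LP Tconv had more, at 13.55 and 12.88 (LP Treg minus LP Tconv -2.87, adjusted p = 0.000352). Il17a, the gene of the helper cytokine IL-17A, stayed low in LP Treg, at 7.05 and 7.26 against 6.75 and 6.92 (0.32 ± 0.33, adjusted p = 0.771), and stood at 12.17 and 10.65 in LP Tconv. Il21, a cytokine that helps B cells, was likewise near background in both Treg groups, at 6.43 and 5.89 against 5.89 and 5.36, and at 12.13 and 10.17 in LP Tconv. Tnf read 7.22 and 7.82, against 8.88 and 8.58 (-1.22 ± 0.32, adjusted p = 0.0363), a call lost without LP Treg replicate 1 or either LN CD103-Klrg1- array. Among 18 cytokine receptors, 5 were higher and Il6ra was lower. Ifngr1, a chain of the interferon gamma receptor, read 11.74 and 11.44, against 9.32 and 9.17 (2.34 ± 0.35, adjusted p = 0.000538). Il12rb1, shared by the receptors for IL-12 and IL-23, read 9.29 and 9.32, against 7.32 and 6.98 (2.16 ± 0.26, adjusted p = 5.08e-05). Il18rap, of the IL-18 receptor, differed by 1.95 ± 0.30 (adjusted p = 0.000655), and was higher in LP Tconv than in LP Treg (-2.15, adjusted p = 0.000261).

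**Figure D3:**
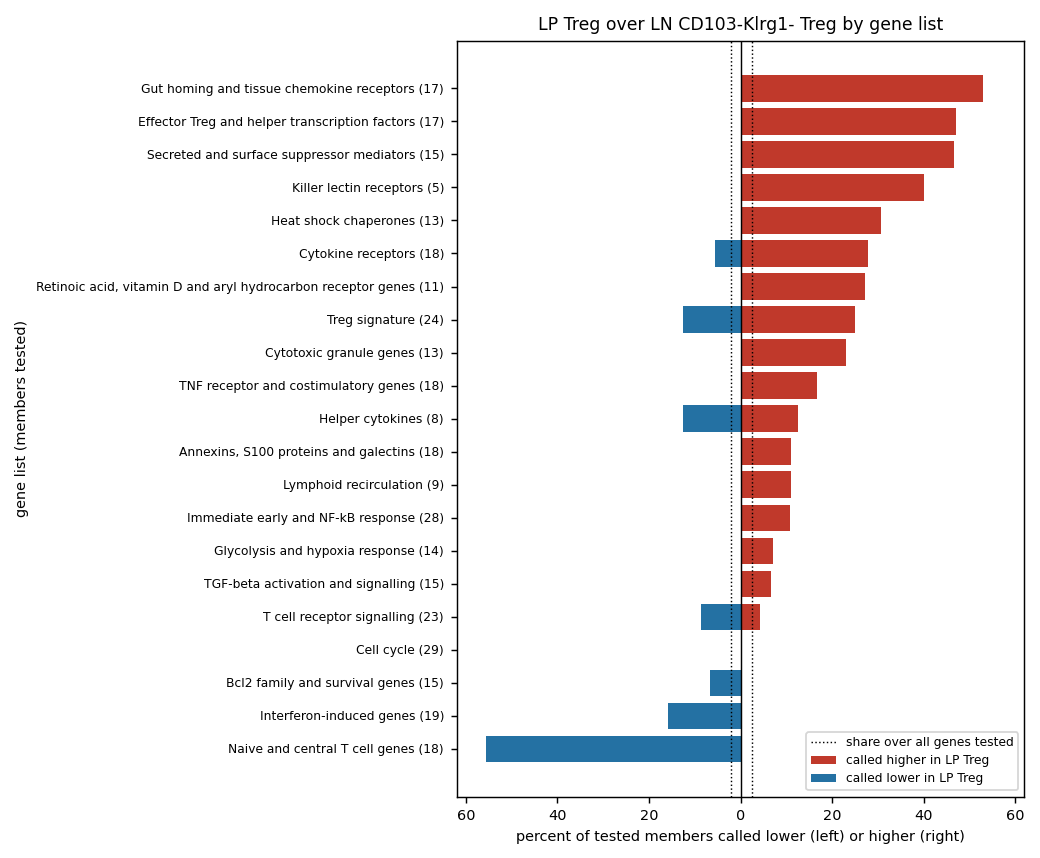
Percent of the tested members of each pathway list called lower (left bars) or higher (right bars) in LP Treg over LN CD103-Klrg1- Treg; dotted lines mark the shares over all genes tested, 2.13% lower and 2.43% higher. The homing list has 9 of 17 members higher and the naive and central list 10 of 18 lower.

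The LP Tconv arrays were used to mark called genes that also differed in gut cells without Foxp3. A called gene was marked when it was also called in the same direction in LP Tconv over LN CD103-Klrg1- Treg, where 683 genes, or 5.46% of those tested, were called (2.92% higher and 2.53% lower). The comparison shares its LN CD103-Klrg1- arrays with the first one, so the count is given as a description. Marked were 288 of 570 genes: 143 of 304 higher genes (47.0%) and 145 of 266 lower genes (54.5%). A rise or fall in LP Tconv can go with the site or with the lack of Foxp3, which this comparison cannot tell apart. A marked rise need not be confined to the gut: Gzmb was also high in LN CD103+Klrg1+ Treg. Of the 24 Treg signature genes 14 were lower in LP Tconv, and the falls of Nrp1, Plagl1 and Ikzf4 were among those marked. The count was 385 without LP Tconv replicate 1, 203 without LP Tconv replicate 2 and 545 without the dim DEC arrays. It was 119 without LP Treg replicate 1, 153 without LN CD103-Klrg1- replicate 1 and 109 without its replicate 2. When genes were marked by LP Tconv over the 2 CD103+ lymph node subsets, which shares no array with the first comparison, 211 genes were marked, 198 of them in both ways. The markings are not independent, since both use the LP Tconv arrays and deviations of same-numbered LN CD103-Klrg1- arrays correlated at 0.387 and 0.72 with those of the CD103+ subsets. In that comparison 7.87% of all genes tested were called, 3.4% higher and 4.47% lower.

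Site-marked rises were led by Il10, Gzmb, Gzma, Hspa1b and Hspa1a. For Gzma the changes were nearly equal, 6.06 in LP Treg and 5.92 in LP Tconv over the same lymph node arrays, and for Gzmb they were 6.84 and 6.21. Site-marked falls were led by Ms4a1, Tubb2b, Pou2af1, Bank1 and Id3. Ms4a1 changed by -3.40 in LP Treg and -3.31 in LP Tconv, and Id3 by -3.01 and -2.68. Of the 288, 7 were also higher in LP Treg than in LP Tconv, Il10 and Ccr2 among them. Neither Il10 nor Ccr2 was marked by LP Tconv over the 2 CD103+ lymph node subsets. The differences there were 0.43 (adjusted p = 0.621) for Il10 and -0.932 (adjusted p = 0.0939) for Ccr2. Il10 was called over LN CD103-Klrg1- in LP Tconv too (2.93, adjusted p = 0.00108), yet LP Treg stood 3.98 above LP Tconv (adjusted p = 7.95e-05).

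A further 106 called genes, 72 higher and 34 lower, were not site-marked and were called in the same direction in LP Treg over LP Tconv, where 2.7% of all genes tested were called (1.41% higher and 1.29% lower). That comparison shares the LP Treg arrays with the first one. The largest such rises were Klrg1, Mmp9, Nfil3, Ky and Nckap5. Mmp9 stood at 6.68 and 7.81 in LP Tconv, 3.29 below LP Treg (adjusted p = 7.64e-06), and Ky at 6.09 and 6.07, 3.84 below LP Treg (adjusted p = 6.01e-08). Falls of this kind were led by Pxylp1, Sema4a, Cmah, St8sia6 and Nsg2. Sema4a was at 8.77 and 8.06 in LP Tconv, so LP Treg minus LP Tconv was -3.48 (adjusted p = 4.92e-05), and Pxylp1 at 7.42 and 6.84 (-3.65, adjusted p = 1.67e-05). Nsg2, a neuronal vesicle gene, read 8.62 and 9.64 in LP Treg, against 11.99 and 11.56 in LN CD103-Klrg1- Treg (-2.65 ± 0.35, adjusted p = 0.000131). The remaining 176 called genes met neither criterion, and Bach2 and Bcl2 were among them: their falls in LP Tconv were -1.74 (adjusted p = 0.0524) and -1.43 (adjusted p = 0.13).

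**Figure D4:**
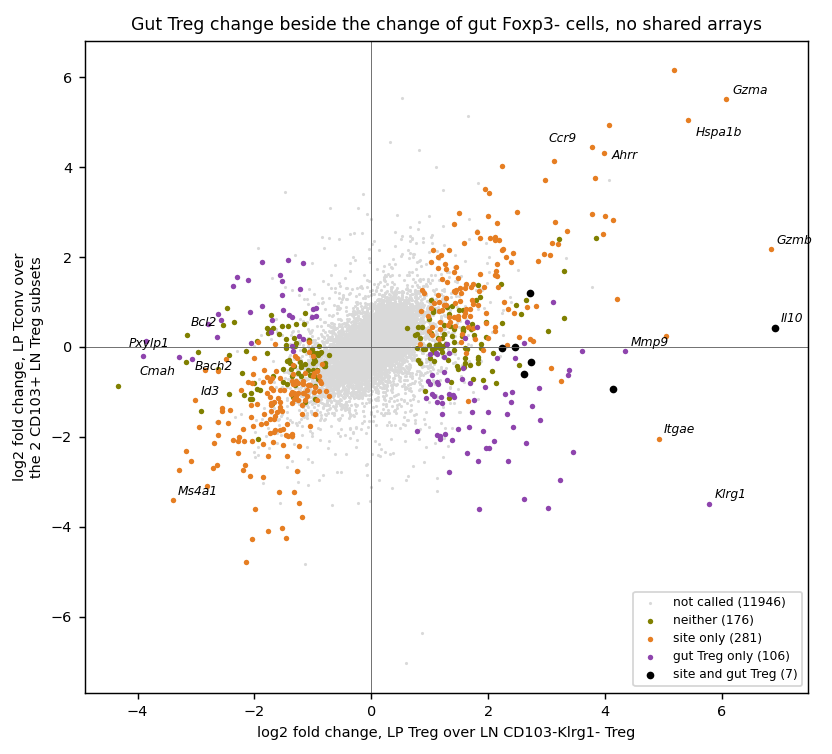
Log2 fold change of LP Treg over LN CD103-Klrg1- Treg (horizontal) and of LP Tconv over both CD103+ lymph node subsets (vertical), 1 point a gene, with no array in common; colours give the class of each called gene, set by LP Tconv over LN CD103-Klrg1- and LP Treg over LP Tconv. Gzma and Hspa1b lie high on both axes, while Klrg1 lies at 5.77 on the horizontal axis and below 0 on the vertical one.

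LP Treg were also set against the lymph node subset with both surface markers, LN CD103+Klrg1+ Treg. Here 257 genes, or 2.05%, were called, 93 higher (0.743%) and 164 lower (1.31%), and Klrg1 and Itgae were not called (-0.78, adjusted p = 0.548, and -0.26, adjusted p = 0.942). Of the genes called over LN CD103-Klrg1-, 75 higher and 75 lower were called the same way over LN CD103+Klrg1+, and the comparisons share the LP Treg arrays. The count was 95 without LP Treg replicate 1. The largest rise was Ccr9, at 13.10 ± 0.15 in LP Treg against 7.74 ± 0.98 in LN CD103+Klrg1+ (SD; 5.36, adjusted p = 4.17e-05). Gzma followed with 11.98 and 12.45, against 6.68 and 7.77 (4.99, adjusted p = 5.93e-06), and Il10 with 14.01 and 13.53, against 10.18 and 9.54 (3.91, adjusted p = 0.000182). For all 3 genes LP Treg thus lay above even the lymph node cells that carry both markers. Hspa1a and Hspa1b were between them, at 4.64 and 4.10.

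The largest falls named over LN CD103+Klrg1+ were Ms4a1 (-4.13), Pxylp1 (-3.94), Anxa1, Bank1 (-3.73) and Pou2af1 (-3.70). Anxa1, an anti-inflammatory annexin, read 6.27 and 6.57 in LP Treg, against 10.09 and 10.43 in LN CD103+Klrg1+ (-3.84, adjusted p = 5.93e-06), and it was not called over LN CD103-Klrg1- (0.01 ± 0.33, adjusted p = 0.996). S100a4 was at 7.83 and 9.49 in LP Treg, against 12.07 and 11.31 in LN CD103+Klrg1+ (-3.03, adjusted p = 0.00164). S100a6 lay between the lymph node subsets: LP Treg stood 1.83 ± 0.43 above LN CD103-Klrg1- (adjusted p = 0.0155) and 1.72 below LN CD103+Klrg1+ (-1.72, adjusted p = 0.0418). The first of these was not called without LP Treg replicate 2 or either LN CD103-Klrg1- array. In all, 9 genes were called higher over LN CD103-Klrg1- and lower over LN CD103+Klrg1+. For Khdc1a and Ntn4, singled out after their values were seen, the calls were reversed, with -1.80 and -2.04 over LN CD103-Klrg1- and 1.43 and 1.08 over LN CD103+Klrg1+. Khdc1a averaged 5.1 in LP Treg and 3.7 in LN CD103+Klrg1+, and Ntn4 6.0 and 5.0. These rises thus lay wholly under 6.27, among levels near background.

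Some stress genes were higher in both gut groups. Of 13 heat shock chaperones tested, 4 were higher in LP Treg, and all 4 were site-marked. The share called higher over all genes tested was 2.43%. Hspa1b read 12.53 and 12.80 in LP Treg, against 6.26 and 8.23 in LN CD103-Klrg1- Treg (5.42 ± 0.82, adjusted p = 0.000543), and 12.75 and 12.77 in LP Tconv. Hspa1a read 9.72 and 9.57, against 4.17 and 4.75 near background (5.18 ± 0.46, adjusted p = 2e-06). The 2 genes are near-identical copies, so their probe sets may share signal. Hspa5, a chaperone of the endoplasmic reticulum, was higher by 1.16 ± 0.21 (adjusted p = 0.00215) and Hsph1, a partner of Hsp70, by 1.07 ± 0.25 (adjusted p = 0.0162). The mean level of the list was 11.43 and 11.42 on the LP Treg arrays and 10.13 and 10.15 on the LN CD103-Klrg1- arrays. Without LP Treg replicate 1 or LN CD103-Klrg1- replicate 2 only 2 members were called.

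Of 28 immediate early and NF-kB response genes, 3 were called, all higher in LP Treg, beside 2.43% of all genes tested. An unadjusted p under 0.05 by limma was found for 15, beside 1822 of all 12516 genes tested. Tnfaip3, the feedback inhibitor A20, read 13.70 and 12.78, against 10.29 and 9.89 (3.15 ± 0.67, adjusted p = 0.0079). Dusp1, a phosphatase of stress kinases, read 12.55 and 12.12, against 8.53 and 8.46 (3.84 ± 1.04, adjusted p = 0.0411), and Rel, an NF-kB subunit, read 10.86 and 9.13, against 7.28 and 7.43 (2.64 ± 0.51, adjusted p = 0.00399). Dusp1 lost its call when any 1 array of the groups was left out, with array weights, with no filter and with the replicate block (adjusted p = 0.0525). Jun differed by 4.07 ± 1.23 and was not called (adjusted p = 0.0749). The list had a median of 1.33, and its mean level was 10.57 and 10.18 in LP Treg, 10.41 and 9.64 in LP Tconv, and 9.04 and 8.99 in LN CD103-Klrg1- Treg. No member was called without LP Treg replicate 1, 7 were called without the dim DEC arrays and 11 with only the 10 gut and lymph node arrays. Per the labels the gut cells were isolated by a protocol of their own, so tissue and isolation cannot be told apart in these genes.

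Markers of other cells moved in both directions. Of 11 B cell markers tested, 4 were lower in LP Treg and all 4 were site-marked. The share called lower over all genes tested was 2.13%. Ms4a1, the gene of CD20, read 6.28 and 6.18 in LP Treg, against 9.61 and 9.65 in LN CD103-Klrg1- Treg (-3.40 ± 0.39, adjusted p = 2.77e-05), and Bank1 5.78 and 6.22, against 9.05 and 9.11 (-3.08 ± 0.53, adjusted p = 0.0017). Fcer2a and Cr2 were the other 2, at -1.36 and -0.78, and both lost their call when any 1 array of the groups was left out. Cd79a was under the median of all values on the arrays of both groups, at 5.37 and 5.19 in LP Treg against 5.69 and 6.27. The mean level of the list was 6.77 and 6.81 in LP Treg, against 7.57 and 7.57, while its summed intensity ran from 7152 to 9301 in LP Treg and from 5042 to 5909 in LN CD103-Klrg1- Treg, with Ighm the brightest member. Ms4a1, Bank1 and Pou2af1 stand among the largest falls, and the part of B cells in these falls was not tested.

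Of 7 plasma cell and immunoglobulin markers, Jchain and Igha were higher in LP Treg and Pou2af1, a B cell coactivator, was lower. Jchain, the joining chain of secreted IgA, read 10.90 and 9.97, against 6.55 and 6.31 (4.01 ± 0.43, adjusted p = 1.58e-05). Igha, the IgA heavy chain, read 12.31 and 10.10, against 7.35 and 7.51 (3.78 ± 0.42, adjusted p = 2.18e-05). Both were also high in LP Tconv, at 10.02 and 8.90 for Jchain and 9.96 and 10.45 for Igha. Pou2af1 read 5.23 and 5.78, against 8.67 and 8.68 (-3.17 ± 0.49, adjusted p = 0.000734). Tnfrsf17, a receptor of plasma cells, was under the median of all values on every one of these arrays, at 4.86 and 4.49 in LP Treg against 4.45 and 4.71. The summed intensity of the list was 8880 and 3735 in LP Treg, against 2161 and 1889, and its part in the other differences was not tested.

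No gut epithelial marker was called by limma among 9 tested, with 1 at an unadjusted p under 0.05. Over all 12516 genes tested 1822 had such a p. Of the 29 epithelial markers with a probe set, 20 were not tested because of low values. Their mean level was 5.49 and 5.69 in LP Treg and 5.53 and 5.58 in LN CD103-Klrg1- Treg. Among 24 myeloid and dendritic markers none was called, with 3 at an unadjusted p under 0.05, and likewise none of 7 markers of CD8 T, NK and gamma-delta T cells, with 1, and none of 4 erythroid markers, with 0. The summed intensity of the myeloid list was 3314 and 3224 in LP Treg, against 5004 and 5325. Acta2, a smooth muscle actin, was the sole call among 10 stromal markers, at 7.72 and 8.15 in LP Treg against 6.49 and 6.79 (1.30 ± 0.26, adjusted p = 0.00569), and was lost with the mean of its 3 probe sets and without LP Treg replicate 2 or LN CD103-Klrg1- replicate 1. Gata1, the sole call among 6 mast cell and eosinophil markers, was lower in LP Treg, at 7.52 and 8.04 against 9.84 and 9.62 (-1.95 ± 0.38, adjusted p = 0.00435). It lost its call without LP Treg replicate 1 or LN CD103-Klrg1- replicate 1.

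**Figure D5:**
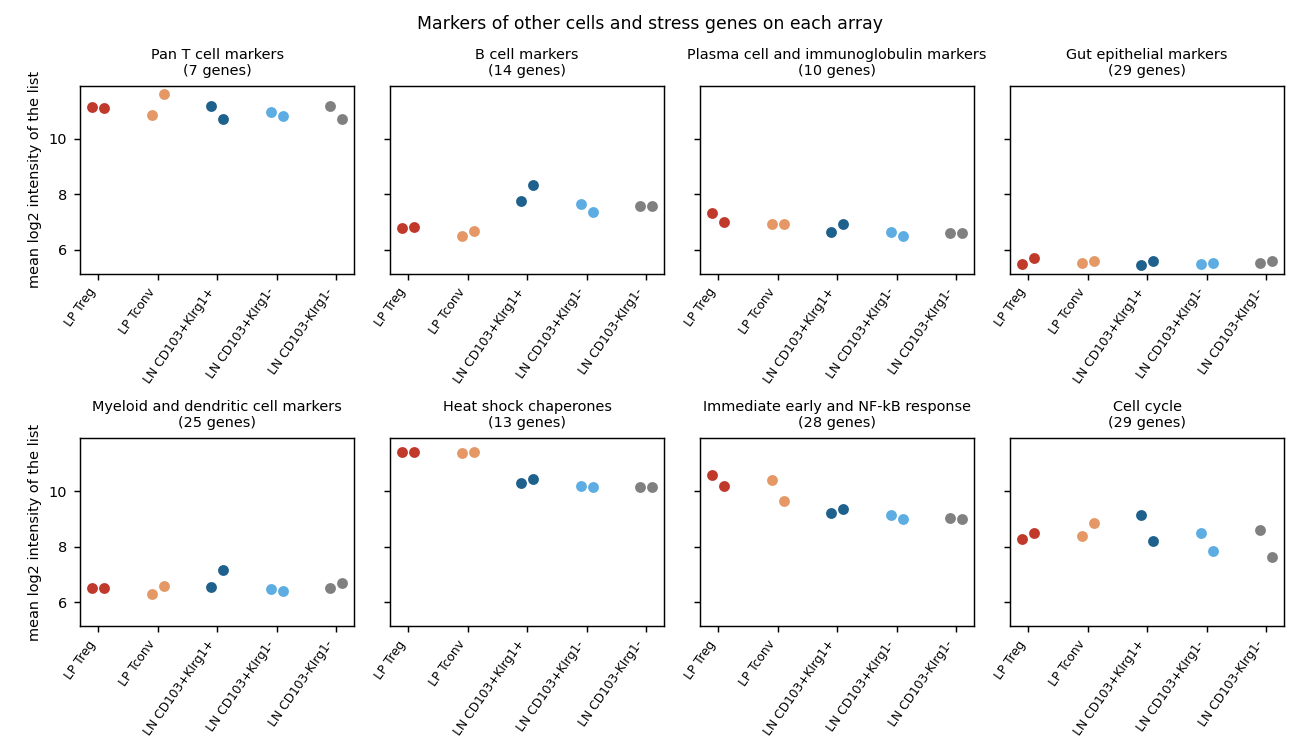
Mean log2 intensity over each list of cell type markers or stress genes (vertical axis) on the 2 arrays of each gut and lymph node group (horizontal axis), 1 point an array. Heat shock chaperones lie at 11.43 and 11.42 in LP Treg against 10.13 and 10.15 in LN CD103-Klrg1- Treg, B cell markers at 6.77 and 6.81 against 7.57 and 7.57, and pan T cell markers at 11.15 and 11.10 against 11.18 and 10.73.

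Several pathways gave 3 calls or fewer. The share called over all genes tested was 4.55%, and of the lists given here only cell cycle lay below it. None of 29 cell cycle genes was called by limma, with 3 at an unadjusted p under 0.05, beside 1822 of all 12516 genes tested. The list mean was 8.29 and 8.50 on the LP Treg arrays, against 8.62 and 7.64 on the LN CD103-Klrg1- arrays, which were farther apart. Of 19 interferon-induced genes, Usp18, Oasl2 and Ifit3 were lower in LP Treg and the list median was 0.19. Usp18, a brake on interferon signalling, read 8.68 and 8.89, against 10.48 and 10.47 (-1.69 ± 0.29, adjusted p = 0.00167). Oasl2 and Ifit3 lost their calls without LP Treg replicate 1. Ifit3 also lost its call without either LN CD103-Klrg1- array and with only the 10 gut and lymph node arrays. In the list of TGF-beta genes only Smad3, a signal transducer, was called among 15, at 10.99 and 11.12 in LP Treg against 9.87 and 9.75 (1.25 ± 0.20, adjusted p = 0.000896). Of 23 genes of T cell receptor signalling, Malt1 was higher (1.88 ± 0.33, adjusted p = 0.00189) and Themis and Ptpn6 were lower (-1.43 ± 0.28, adjusted p = 0.00434, and -1.15 ± 0.31, adjusted p = 0.0402). Each of these 3 lost its call without LP Treg replicate 1 and with the mean of probe sets. Themis also lost it without LN CD103-Klrg1- replicate 1. Ptpn6 lost it when any 1 array of the groups was left out and with the mean-variance trend. The glycolysis list of 14 had 1 call, the glucose transporter Slc2a3 (1.01 ± 0.28, adjusted p = 0.0451), which was lost when any 1 array of the groups was left out and with the replicate block (adjusted p = 0.0553). Annexins, S100 proteins and galectins had 2 of 18 higher, S100a6 and Anxa4, and Anxa4 (1.48 ± 0.33, adjusted p = 0.0106) lost its call without either LP Treg array or LN CD103-Klrg1- replicate 1.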

How the data were processed

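RNA of sorted CD4 T cells, amplified in 2 rounds, was measured on Affymetrix M430v2 arrays. The authors deposited RMA intensity on a linear scale, per the submitters' processing notes, which give no RMA version; the deposited values ran from 4.71 to 26750. Log2 was taken of the deposited intensities with no pseudocount. Of 45101 probe sets, 64 were controls, 34945 had 1 gene symbol, 932 several and 9224 none, controls included. The probe set with the highest mean stood for each of 18193 genes, of which 9010 had several. The 12516 genes with at least 1 of the 9 group means above the median of all values, 77.0, were tested. Groups were taken from sample titles. A mean per group over all 23 arrays and 9 groups was fitted with lmFit and eBayes (limma 3.58.1, R 4.3.3), two-sided, with 14 residual and 3.48 prior degrees of freedom. Tables and figures used Python 3.11.15, pandas 2.3.3, numpy 2.4.6 and matplotlib 3.10.9. The fit was tested on simulated data with independent noise and 1 spread per gene on all arrays. The real arrays differ in spread and some deviate together, so this checked the code only. The number of arrays limits the precision.

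Named genes are the markers and sort genes, the 15 largest rises and 15 largest falls, up to 5 members of each list with the smallest p and called members that moved against their list, the 5 largest site and gut Treg genes in each direction, and the 5 largest over LN CD103+Klrg1+. Clone names and immunoglobulin genes were left out of the rankings. Treg, site and other cell markers, and Khdc1a and Ntn4, are named besides. The members and gene lists were chosen with earlier results of these data known. List levels are means or sums over members with a probe set. Genes with no probe set of their own were not analysed here. Alternatives changed the filter, probe set rule, normalization, offset, weights, variance trend, arrays in the fit, the replicate block and single arrays. Fits of fewer arrays kept the same genes and probe sets.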

Additional observations from a re-analysis of the deposited data

Results flagged for a closer look

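For 7 called genes the change from LN CD103-Klrg1- Treg was called in opposite directions in the gut groups, and the difference itself, LP Treg minus LP Tconv, was tested with limma. The genes were chosen after their values were seen, and the choice required the difference to be called. Opposite changes from the same lymph node arrays add up in it, so its adjusted p values describe the genes and are no further support. Neb, a giant muscle protein gene, read 10.10 and 9.62 in LP Treg, 5.60 and 5.50 in LP Tconv, and 6.64 and 6.63 in LN CD103-Klrg1- Treg (difference 4.31, adjusted p = 1.35e-07). Cd83, an activation marker, read 12.11 and 10.41 in LP Treg, 6.73 and 6.68 in LP Tconv, and 9.96 and 8.89 in LN CD103-Klrg1- Treg (4.56, adjusted p = 1.67e-05). LP Treg lay above and LP Tconv below the lymph node arrays for both. Snx9, a sorting nexin, gave a difference of 2.87 (adjusted p = 1.98e-07), Tnfrsf4 one of 2.74 (adjusted p = 1.59e-05) and Fam160a1 one of 1.69 (adjusted p = 4.75e-05), also with LP Treg the higher. Themis, a regulator of T cell receptor signalling, read 7.69 and 8.12 in LP Treg, 10.48 and 10.69 in LP Tconv, and 9.40 and 9.27 in LN CD103-Klrg1- Treg (-2.68, adjusted p = 1.18e-05). Enc1, an actin-binding protein gene, ran the same way as Themis, with a difference of -1.90 (adjusted p = 0.000217).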

How the results depend on the processing

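No called gene among those named changed sign, but the balance of higher and lower calls did. LP Treg over LP Tconv had 177 higher and 161 lower calls, and 238 and 275 without LP Tconv replicate 1. The cell cycle median was 0.28, and -0.14 without LN CD103-Klrg1- replicate 2. With 2 arrays a group, counts moved with the spread estimate, and the cause was not tested. Over LN CD103-Klrg1- Treg (570), array weights gave 1494 calls, leaving out both dim DEC arrays 1082, and only the arrays of the groups compared 1006; leaving out 1 array gave 194 to 438. For LP Tconv over LN CD103-Klrg1- Treg (683), these gave 1227 without the dim arrays, 113 with only the arrays compared, and 317 to 1728 on leaving out 1 array. For LP Treg over LP Tconv (338), weights gave 221, the dim arrays left out 557, only the arrays compared 17, and 1 array left out 173 to 513. Over LN CD103+Klrg1+ Treg (257) the values were 648 with weights, 448 without the dim arrays, and 95 to 194 with 1 array left out. Site-marked genes (288) numbered 545 without the dim arrays, 111 with only the arrays compared, 211 when marked with no shared arrays, and 109 to 385 with 1 array left out. Without LP Treg replicate 1, 63.9% of calls over LN CD103-Klrg1- were higher, against 53.3%. Of 86 named called genes, 53 stayed called under all 15 alternatives other than the fit of 4 arrays. The labels do not pair the replicates, which share only a number; deviations of same-numbered LP Treg and LN CD103-Klrg1- arrays correlated at -0.017, those of LP Tconv and LN CD103-Klrg1- at -0.41, and those among the 3 lymph node subsets at 0.374 to 0.72, so lymph node arrays of 1 number deviated together. The replicate block gave 558, 673, 331 and 258 calls in these comparisons and 285 site-marked genes.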
